A study of Mus musculus with 4 samples.

Results

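Natural killer (NK) cells of mouse lung tumours were examined in 2 single-cell RNA libraries made before depletion of leukocytes. The members were selected on measured counts. UMIs (unique molecular identifiers) count captured transcripts. A barcode needed 200 genes or more, and no more than 20% of its UMIs could be mitochondrial. It was a member if Ncr1, Klrb1c, Klre1 and Eomes together gave 2 or more UMIs. It also had to lack any UMI of Cd3d, Cd3e or Cd3g, of the B cell gene Cd79a, of the epithelial gene Epcam and of the macrophage gene C1qa. The rule found 196 members among 13531 kept cells of the pre-depletion libraries, and 28085 cells were kept in the whole series. Of the members, 127 came from the vehicle library and 69 from the library labelled tamoxifen.

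All groups carried the same labelled genotype, which included p53frt, Rosa-FSF-CreERT2 and Hnf4aflox. Tumours were started by intubation with Adenoviral mSPC-FlpO, a Flp recombinase driven by a surfactant protein C promoter, which acts in the lung epithelium. Tamoxifen or its vehicle was given at week 10 and tumours were taken 2 weeks later, in the design to delete Hnf4a from tumour cells. The vehicle is called ethanol in one label and corn oil in another. The 4 groups were vehicle and tamoxifen, each before and after depletion of CD45-positive and CD31-positive cells, with 1 library each. The strain, sex and age of the mice, and the number of mice or tumours in a suspension, are not given in the sources used here. With 1 library per group no difference could be set against a spread between animals, and no test was made. The intervals below are 95% intervals that cover counting error only.

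NK cells are innate lymphocytes that kill stressed, infected or transformed cells without an antigen receptor. Activating receptors such as NKp46 (Ncr1) and NKG2D (Klrk1) are set against inhibitory receptors for class I molecules, among them the Ly49 family (Klra genes) and NKG2A (Klrc1). Killing uses perforin (Prf1), which lets granzymes (Gzma, Gzmb) into the target, and NK cells also secrete interferon gamma (Ifng) and the chemokines Ccl3, Ccl4, Ccl5 and Xcl1. In the mouse, maturation leads from cells with CD27 and CD127 (Il7r) to cells with CD11b (Itgam) and KLRG1. Type 1 innate lymphoid cells (ILC1), a tissue-resident relative, share Ncr1 and Klrb1c and carry CD49a (Itga1) and Cxcr6.

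Several facts of the libraries touch the values below. The pre-depletion libraries held 7304 (vehicle) and 6227 (labelled tamoxifen) kept cells with medians of 9519 and 9986 UMIs. Pairs of libraries shared between 10 and 18 cell barcodes, and no member had a shared barcode. In epithelial-gated cells, Hnf4a, the floxed gene, was counted with vehicle at 54.0 CPM (counts scaled to a common total of 1000000) before depletion and 55.0 CPM after it. The libraries labelled tamoxifen gave 84.4 and 83.2 CPM. Its level was thus not lower where the label implies deletion. The labels do not say which exons are flanked by loxP, and a 3′ tag outside the deleted part checks nothing. For this reason directions are given for the library labelled tamoxifen and not for loss of Hnf4a. Among members Hnf4a had 0 UMIs with vehicle and 1 in the library labelled tamoxifen.

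The label of the members was checked against Ncr1, Klrb1c, Klre1, Gzma and Prf1. Ncr1, the gene of NKp46 (ENSMUSG00000062524, chromosome 7, 4337724 to 4345164, GENCODE M21 on GRCm38), gave a UMI in 117 of 127 members with vehicle and in 60 of 69 in the library labelled tamoxifen. Klrb1c, which encodes the antigen NK1.1, was seen in 119 and 66 members, and Klre1, a lectin-like receptor of the same gene complex on chromosome 6, in 117 and 62. Eomes, a T-box factor of NK cells, was seen in 65 and 40. At least 3 of these 4 genes were seen in 109 and 58 members. These genes chose the members, so their counts describe the selection. Gzma and Prf1 were not used by the rule, and Gzma UMIs were seen in 112 and 65 members and Prf1 UMIs in 115 and 67.

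The stretches of 150 bases before the start of Ncr1 and of Gzma are shown because these genes carry the identity of the members. They come from RefSeq (GRCm38.p6), at chr7:4337565-4337714 on the plus strand and chr13:113100982-113101131 on the minus strand, and are written 5′ to 3′. Capitals mark the RUNX word TGTGGT and the T-box word GTGTGA, searched on both strands (ACCACA and TCACAC on the other strand).
Ncr1: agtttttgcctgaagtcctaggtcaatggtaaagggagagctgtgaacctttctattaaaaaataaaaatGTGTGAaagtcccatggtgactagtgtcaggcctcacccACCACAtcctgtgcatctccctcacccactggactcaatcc
Gzma: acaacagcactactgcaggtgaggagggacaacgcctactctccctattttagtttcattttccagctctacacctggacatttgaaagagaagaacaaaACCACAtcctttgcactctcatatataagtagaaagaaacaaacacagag
The RUNX word stood in 8.40% and the T-box word in 7.52% of 32851 RefSeq promoter windows of that length. Among the 5 markers, the RUNX word occurred once each in the windows of Ncr1, Klrb1c, Gzma and Prf1 and not in that of Klre1, and the T-box word occurred in that of Ncr1. The windows of Klrb1c, Klre1 and Prf1 reach into the GENCODE gene and are not printed. A match of letters shows no binding.

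The edge of the selection held cells unlike the rest. The 109 and 54 members with 8 or more UMIs of the 4 genes had 9673 and 10127 CPM of Gzma and 195 and 309 CPM of the macrophage gene Lyz2. The 4 and 5 members just inside the threshold, with 2 UMIs, had 110 and 322 CPM of Gzma and 2782 and 4455 CPM of Lyz2. The 19 and 23 cells just outside it, with 1 UMI, had 3.93 and 54.8 CPM of Gzma and 4601 and 4578 CPM of Lyz2. The Lyz2 level of the 2-UMI members came from few cells. With vehicle, 2 of the 4 gave 117 and 80 of the 202 Lyz2 UMIs, and in the library labelled tamoxifen 1 of the 5 gave 94 of 97.

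With vehicle, 18 members had from 2 to 7 gate UMIs, and 12 of them carried a UMI of Gzma or Prf1. In the library labelled tamoxifen there were 15 such members and all 15 carried one. Of these low-count members, 11 and 8 had fewer than 2100 UMIs in all. For some of the results that rest on the low-count or very deep members, values without these members are also given.

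Of the kept cells, the NK gate took 1.74% with vehicle (Clopper-Pearson, 1.45 to 2.07) and 1.11% (0.863 to 1.40) in the library labelled tamoxifen. These intervals do not overlap. As a share of cells with a UMI of Ptprc, the gene of CD45, members were 2.15% (1.79 to 2.55) and 1.42% (1.11 to 1.80). Among lymphoid gates (NK, Cd3-positive T and B cells) the shares were 8.53% (7.16 to 10.1) and 8.59% (6.75 to 10.7). Against CD8 T cells alone, members were 38.4% (33.1 to 43.8) and 31.1% (25.1 to 37.6) of both gates together. The share of NK cells was therefore lower among all cells of the library labelled tamoxifen and close to equal among its lymphocytes. A share does not tell fewer NK cells from more cells of other kinds.

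**Figure D1:**
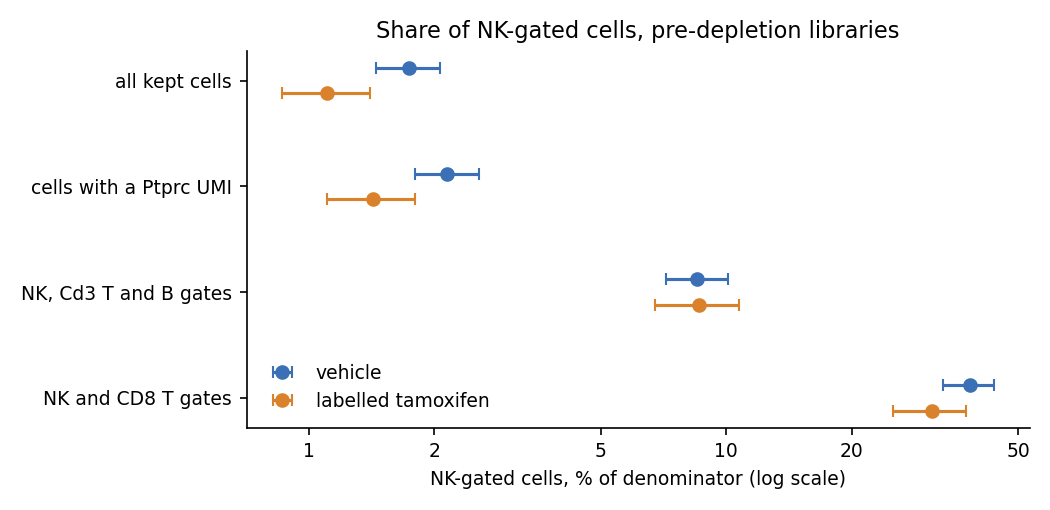
NK-gated cells as a percentage (log scale) of 4 denominators in the vehicle library (blue) and the library labelled tamoxifen (orange), with exact 95% intervals for counting error. The intervals are apart for all kept cells (1.74% and 1.11%) and lie over each other for the lymphoid gates (8.53% and 8.59%).

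After depletion, 0 of 7043 kept cells with vehicle and 0 of 7511 in the library labelled tamoxifen met the rule, which allows shares of up to 0.0426% and 0.0399% by the limit of 3 counts. In those libraries 5 and 1 cells had 2 or more gate UMIs, and each of them also had an Epcam UMI. Before depletion, 35 and 25 cells with the NK genes and no Cd3 UMI were lost to a UMI of Cd79a, Epcam or C1qa. Epcam was present in 26 and 15 of them and C1qa in 17 and 13. With vehicle the lost cells had a median of 18378 UMIs, against 4338 for members, and in the library labelled tamoxifen 7016 against 3969. Without the condition on these 3 genes the shares were 2.22% and 1.51%.

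Members were shallow. With vehicle they held from 887 to 45798 UMIs and in the library labelled tamoxifen from 786 to 15964, with medians of 2001 and 1860 genes. Mitochondrial UMIs made up a median of 1.58% and 2.41%. Their UMIs summed to 655352 and 306660, so that 1 UMI was worth 1.53 CPM with vehicle and 3.26 CPM in the library labelled tamoxifen. The 8 vehicle members with over 10000 UMIs gave 24.0% of all member UMIs, and the 3 such members of the library labelled tamoxifen gave 13.9%. A Scrublet doublet score of 0.25 or more was found in 1 and 0 members.

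Members carried high levels of cytotoxic genes, and the 19 genes of that list summed to 17263 and 19657 CPM. Gzma, granzyme A (ENSMUSG00000023132, chromosome 13, 113093825 to 113100981), stood at 7730 CPM (exact Poisson interval 7519 to 7946) with vehicle and 8951 CPM (8620 to 9293) in the library labelled tamoxifen. Prf1, perforin (ENSMUSG00000037202, chromosome 10, 61297833 to 61304680), stood at 1489 CPM (1397 to 1586) and 1771 CPM (1625 to 1926). Gzmb, granzyme B, was at 1273 and 1115 CPM, and Nkg7, a granule protein, at 2684 and 3476 CPM. The largest log2 ratio of the 4 was that of Nkg7, 0.37 (0.26 to 0.48), so none was 2-fold apart. The ratios were 0.21 for Gzma, 0.25 for Prf1 and -0.19 for Gzmb. Without the members over 10000 UMIs they were 0.07 for Gzma, 0.10 for Prf1, 0.23 for Nkg7 and -0.31 for Gzmb. The higher levels of Gzma and Prf1 in the library labelled tamoxifen thus depended in large part on the deep members.

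In single members thinned to 2000 UMIs, Gzma ranged from 0 to 64 UMIs with a median of 18.5 in 116 vehicle cells, and from 0 to 74 with a median of 19 in 61 cells of the library labelled tamoxifen. Ccl5 had medians of 22.5 and 31 UMIs, Nkg7 of 6 and 7, and Prf1 of 3 and 4. Gzmb had medians of 1.5 and 1 UMIs and reached 23 and 13. The lowest count was 0 in both libraries for all 5 genes, so the ranges had to overlap and show no likeness.

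At that depth a Gzma UMI was seen in 88.8% (81.6 to 93.9) and 93.4% (84.0 to 98.2) of members. In B-gated cells, which should lack the gene, it was seen in 0.277% and 0.629%, at median depths of 4944.5 and 4635.5 UMIs before thinning. Prf1 was seen in 82.8% and 91.8% of members and Gzmb in 72.4% and 63.9%. Of 127 and 69 members, 11 and 8 were too shallow for this count. Without thinning, the Gzma shares were 88.2% and 94.2%.

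CD8 T cells, the other killer lymphocytes in these suspensions, carried little Gzma, Prf1 and Gzmb. The gated CD8 T cells (204 and 153) had 130 and 0.970 CPM of Gzma, 46.8 and 47.5 CPM of Prf1, and 59.4 and 139 CPM of Gzmb. Nkg7 was at 1425 and 1464 CPM in them and Ccl5 at 2458 and 3651 CPM. Ifng was at 283 and 338 CPM in CD8 T cells, against 246 and 473 CPM in members. For Ifng and Xcl1 the order of NK and CD8 T cells differed between the libraries, with log2 ratios of NK over CD8 T cells of -0.20 (-0.47 to 0.06) and 0.48 (0.19 to 0.77) for Ifng. For Xcl1 they were -0.51 (-0.84 to -0.20) and 0.61 (0.23 to 0.99). The gates chose both kinds of cell, so these levels are a description.

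Irf8, Cma1 and Itga2 were also higher in the members than in every other gate, while Trbc1, Tyrobp and Fcer1g were not. Irf8, a factor needed for NK cell maturation, was at 1453 and 1549 CPM, above the 984 and 949 CPM of dendritic cells. Cma1, the mast cell protease chymase, was at 432 and 538 CPM in members and at no more than 3.5 CPM in the other gates. Itga2, the integrin CD49b used to sort NK cells, was at 616 and 584 CPM. Trbc1, a T cell receptor constant gene, was at 723 and 835 CPM in members that had no Cd3 UMI, while Trac was at 21.4 and 16.3 CPM. CD8 T cells had 725 and 722 CPM of Trbc1. Tyrobp and Fcer1g, adapters of activating receptors, were at 1633 and 1701 CPM with vehicle and at 2045 and 2120 CPM in the library labelled tamoxifen, in the range of macrophages and neutrophils.

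**Figure D2:**
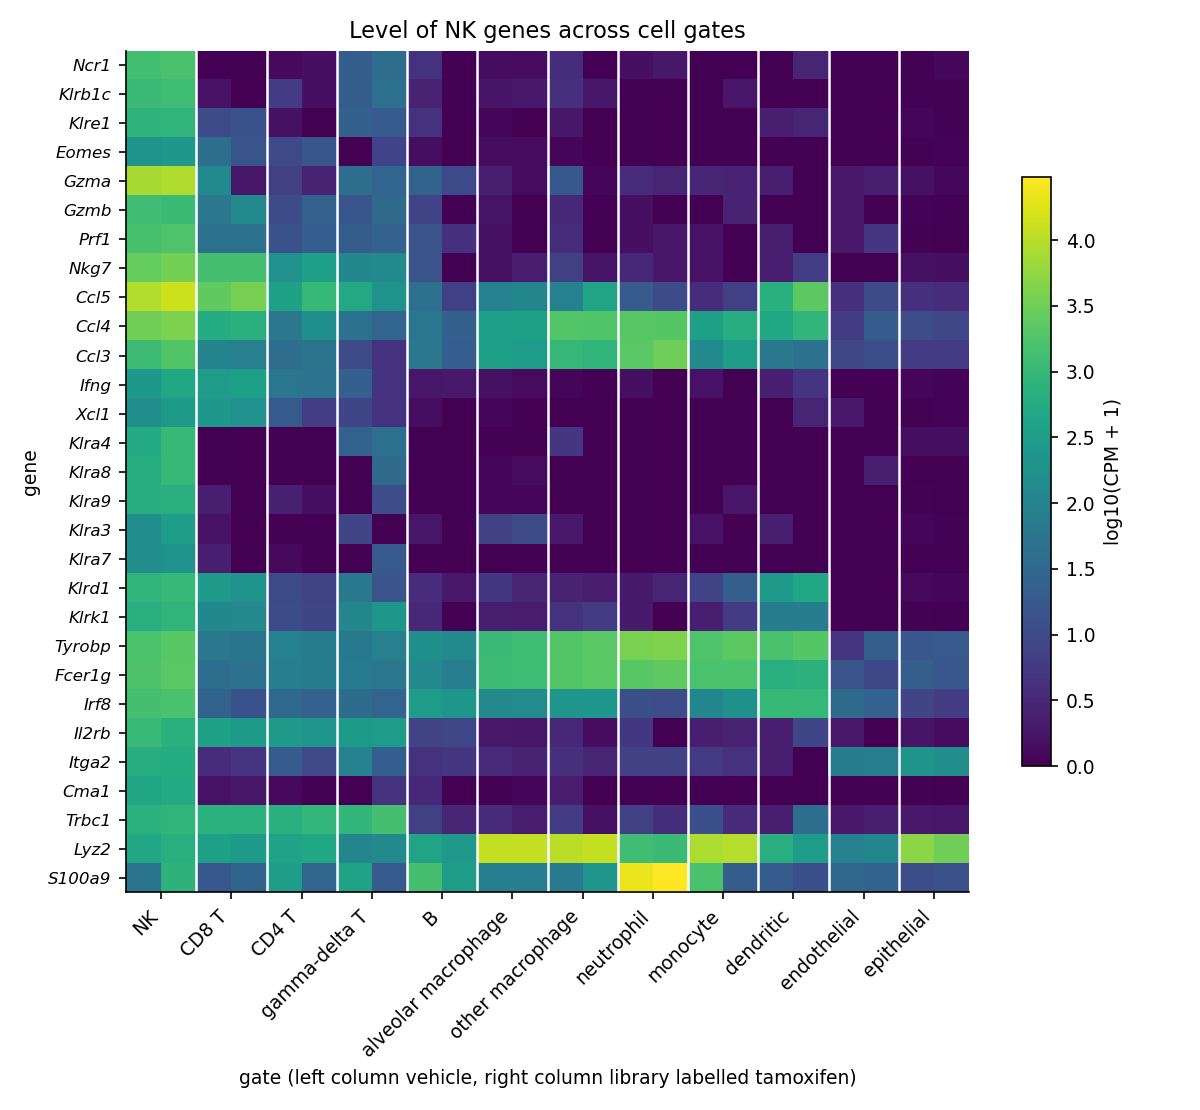
Level, as log10(CPM + 1), of NK genes and of 2 myeloid genes (Lyz2, S100a9) in 12 cell gates, with the vehicle library in the left and the library labelled tamoxifen in the right column of each gate. Ncr1, Gzma, Prf1 and the Klra genes are bright in NK-gated cells and dark elsewhere, and S100a9 differs between the NK columns (51.9 and 792 CPM).

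Zfp683, Itga1 and Cxcr6, which are used to tell ILC1 apart, were low in the members, while genes of mature NK cells were present. Further genes of the ILC1 and residency list were not low. Rgs1 was at 221 and 238 CPM, Rgs2 at 259 and 186 CPM and Inpp4b at 163 and 32.6 CPM. Zfp683 (Hobit), a factor of tissue-resident lymphocytes, had 0 UMIs in both libraries. Itga1 gave 4 and 1 UMIs and Cxcr6 gave 22 and 1 UMIs, that is 33.6 and 3.26 CPM, while CD8 T cells had 430 and 629 CPM of Cxcr6. Cd27 was at 24.4 and 3.26 CPM and Il7r at 76.3 and 26.1 CPM. At 2000 UMIs per cell, Itgam was seen in 40.5% and 31.1% of members, Klrg1 in 21.6% and 29.5%, and S1pr5, a receptor for egress into blood, in 29.3% and 16.4%. Cd27 was seen in 6.03% of vehicle members and in 0 of 61 in the library labelled tamoxifen. In B cells Itgam was seen in 3.6% and 0.629%.

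At 2000 UMIs per cell, members with a UMI of Klrg1 or Itgam (57 with vehicle, 31 in the other library) had more Gzma, Prf1 and Ccl5 than members with neither (59 and 30). With vehicle, Gzma was at 11667 CPM (11048 to 12311) against 7475 CPM (6989 to 7985), and Ccl5 at 14246 against 8441 CPM. Prf1 was at 2298 CPM (2028 to 2594) against 1407 CPM (1201 to 1638) with vehicle. In the library labelled tamoxifen Gzma was at 10677 CPM (9879 to 11523) against 9233 CPM (8480 to 10035), and Ccl5 at 17968 against 12817 CPM. Prf1 was there at 2242 CPM (1885 to 2647) against 1867 CPM (1537 to 2246), so that the intervals of Gzma and of Prf1 overlapped in that library. Xcl1, the ligand of XCR1 on dendritic cells, lay the other way in the libraries. It was at 26.3 CPM (5.43 to 76.9) with Klrg1 or Itgam and 237 CPM (158 to 343) without them in vehicle members, and at 403 CPM (261 to 595) and 83.3 CPM (27.1 to 194) in the library labelled tamoxifen. Few cells carried it. The 3 and 28 thinned Xcl1 UMIs with vehicle lay in 2 and 11 cells, and the 25 and 5 of the other library in 4 and 3 cells, with 10 of the 25 in 1 cell.

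The Ly49 family is a cluster of receptor genes on chromosome 6 that mostly bind class I molecules. Its genes with the highest levels in NK-gated cells were low in the other gates. Klra2 was not, with a mean over the 2 libraries of 14.5 CPM in members and 157 CPM in another gate. Klra8 (130115226 to 130129898) encodes Ly49H, an activating receptor, and was at 609 CPM (551 to 672) with vehicle and 1011 CPM (901 to 1130) in the library labelled tamoxifen. Klra4 (130043731 to 130067271) encodes Ly49D, also activating, and was at 542 CPM (487 to 601) and 1004 CPM (895 to 1123). Klra9 (Ly49I, inhibitory) was at 623 and 639 CPM, Klra7 (Ly49G, inhibitory) at 156 and 199 CPM, and Klra3 (Ly49C, inhibitory) at 157 CPM (128 to 191) and 329 CPM (268 to 400). Outside the NK gate the highest level of these 5 genes was 42.0 CPM, that of Klra4 in gamma-delta T cells.

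Among the 6 family members at 50 CPM or more in either library, Klra3 alone was past 2-fold, with a log2 ratio of 1.06 (0.66 to 1.48) of the library labelled tamoxifen over vehicle, from 29 and 19 cells. The ratio was 0.95 among members with 8 or more gate UMIs, 0.90 without the members over 10000 UMIs and 0.83 without the condition on Cd79a, Epcam and C1qa. Klra5 (8 and 0 UMIs) and Klra2 (4 and 7 UMIs) were too low to be read. Klra4 and Klra8 had ratios of 0.89 (0.67 to 1.12) and 0.73 (0.51 to 0.95), and Klra9 of 0.04 (-0.22 to 0.29). Without the members over 10000 UMIs these were 0.61, 0.44 and -0.12. As means over cells of each cell's CPM, the ratios were 0.85 for Klra3, 0.59 for Klra4 and 0.39 for Klra8. Ly49 genes are close copies, and reads shared between them could be split or dropped in counting, so single members are uncertain.

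Upstream sequences of 4 Ly49 genes are shown because, aligned over whole windows, they fall into 2 like pairs that include the genes with the highest ratios. They are the 150 bases before the RefSeq start (GRCm38.p6, minus strand), at chr6:130067272-130067421, chr6:130129899-130130048, chr6:130193113-130193262 and chr6:130337627-130337776 in this order. Capitals would mark the RUNX and T-box words above, and neither word occurred.
Klra4: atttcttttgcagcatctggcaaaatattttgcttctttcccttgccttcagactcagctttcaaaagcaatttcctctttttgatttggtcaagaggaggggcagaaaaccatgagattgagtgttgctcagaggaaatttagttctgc
Klra8: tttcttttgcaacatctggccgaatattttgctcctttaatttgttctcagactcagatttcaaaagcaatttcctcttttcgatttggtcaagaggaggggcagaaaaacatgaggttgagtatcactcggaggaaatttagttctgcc
Klra9: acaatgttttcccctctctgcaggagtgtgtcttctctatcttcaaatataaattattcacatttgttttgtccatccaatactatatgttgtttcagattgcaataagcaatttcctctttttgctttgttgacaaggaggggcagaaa
Klra3: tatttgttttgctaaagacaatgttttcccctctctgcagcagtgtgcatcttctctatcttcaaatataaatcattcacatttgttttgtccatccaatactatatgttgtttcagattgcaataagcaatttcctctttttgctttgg
In a global alignment Klra4 and Klra8 shared 131 identical bases (87.3% of 150) and Klra9 and Klra3 shared 128 (85.3%). The other 4 pairs shared between 59 and 72. The stretch aagcaatttcctctttt stands in all 4 windows, nearer the start of the gene in Klra9 and Klra3. Counts between the pairs thus depend on where each window begins and do not show unlike sequences. The pair Klra4 and Klra8 had ratios of 0.89 and 0.73, and the pair Klra9 and Klra3 had 0.04 and 1.06.

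Most members carried several Ly49 genes. At 2000 UMIs per cell, 17.2% of vehicle members and 14.8% in the library labelled tamoxifen had none, 56.9% and 55.7% had 2 or more, and the most was 5. Klra9 was seen in 56.9% (47.4 to 66.1) and 47.5% (34.6 to 60.7), Klra8 in 43.1% (33.9 to 52.6) and 45.9% (33.1 to 59.2), and Klra4 in 29.3% (21.2 to 38.5) and 44.3% (31.5 to 57.5). Of the vehicle members, 27 had both Klra4 and Klra8, 7 had Klra4 alone, 23 had Klra8 alone and 59 had neither. In the library labelled tamoxifen the numbers were 21, 6, 7 and 27. Klra1, Klra10, Klra6, Klra5 and Klra2 were each seen in 6.90% or fewer and Klra17 in 0 members, with limits of 2.59% and 4.92% (3 counts of 116 and 61). None of the 11 genes was seen in over 1.11% of thinned B cells.

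**Figure D3:**
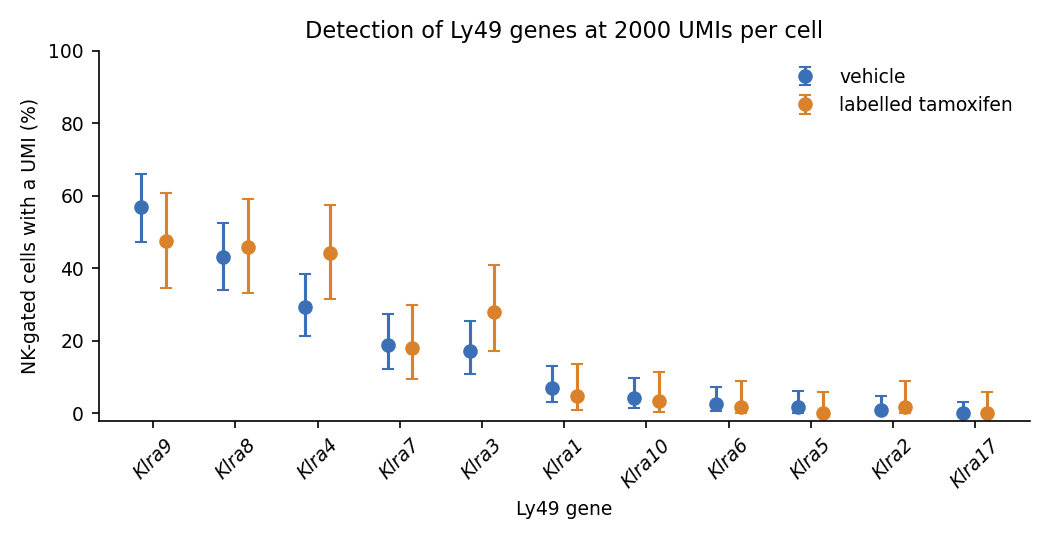
Percentage of NK-gated cells with a UMI of each Ly49 gene after thinning to 2000 UMIs, with exact 95% intervals, for 116 vehicle cells (blue) and 61 cells of the library labelled tamoxifen (orange). Klra9, Klra8 and Klra4 lead in both, and the intervals of the libraries overlap for every gene.

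To compare the libraries, genes at 50 CPM or more in 1 or both were taken, and a log2(CPM + 1) difference of at least 1 (2-fold) was called. Of 4187 genes at that level, 71 (1.70%) were higher and 226 (5.40%) lower in the library labelled tamoxifen, 7.09% in all. The median log2 ratio over these genes was -0.073. Among members with 8 or more gate UMIs, 89 genes were higher and 206 lower, of which 37 and 110 were among those first counted. Of the 71 and 226 genes, 16 and 68 stayed past 2-fold in the same direction in the main count and 7 alternatives (2 stricter gate sums, no deep members, no doublet scores over the limit, 2 scalings and a mean over cells). When the condition on Cd79a, Epcam and C1qa was also left out in turn, 5 and 18 stayed. Without that condition 5 of the 18 named higher genes and 12 of the 26 named lower genes were under 2-fold.

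Many of the largest ratios came from 1 cell each. For 25 of 71 genes higher (35.2%) and 54 of 226 lower (23.9%), 1 member gave at least 50% of the UMIs in the library where the gene was high. This share was not counted over all genes at 50 CPM or more, so it does not set these genes apart. In the vehicle library, Gzmc, granzyme C, had 59 of its 62 UMIs and Gzme 49 of its 50 in the same member, which had 13332 UMIs and no Gzma. Both were at 0 in the library labelled tamoxifen, which makes them at least 9.67-fold and 7.80-fold lower against a floor of 3 UMIs. Csf2, the gene of GM-CSF, had 121 of 123 UMIs in a vehicle member with 6 Klre1 UMIs and no Ncr1, and Inmt had all 58 in another. Ctnnd2, Cacnb2 and Cyp7b1 had 44 of 54, 51 of 57 and 41 of 42 UMIs in the deepest vehicle member. That member had 2 Klre1 UMIs, no Gzma and 355 UMIs of the class II gene H2-Ab1.

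The same held in the other direction. In the library labelled tamoxifen, a member with 15964 UMIs gave 88 of 89 UMIs of Tnfsf4 (OX40 ligand), 70 of 71 of Il4i1 and all 25 of Cd70, the ligand of CD27. It carried 7 Ncr1, 6 Klre1 and 6 Eomes UMIs and no Gzma. Another member gave 224 of 243 UMIs of S100a9 and 111 of 123 of S100a8. A member with 2 gate UMIs and 94 Lyz2 UMIs gave 19 of 23 UMIs of Lpl, and 1 member gave 60 of 82 of Chil3. Tspan3 had 14 of 16 UMIs in 1 member and Gk 8 of 21.

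**Figure D4:**
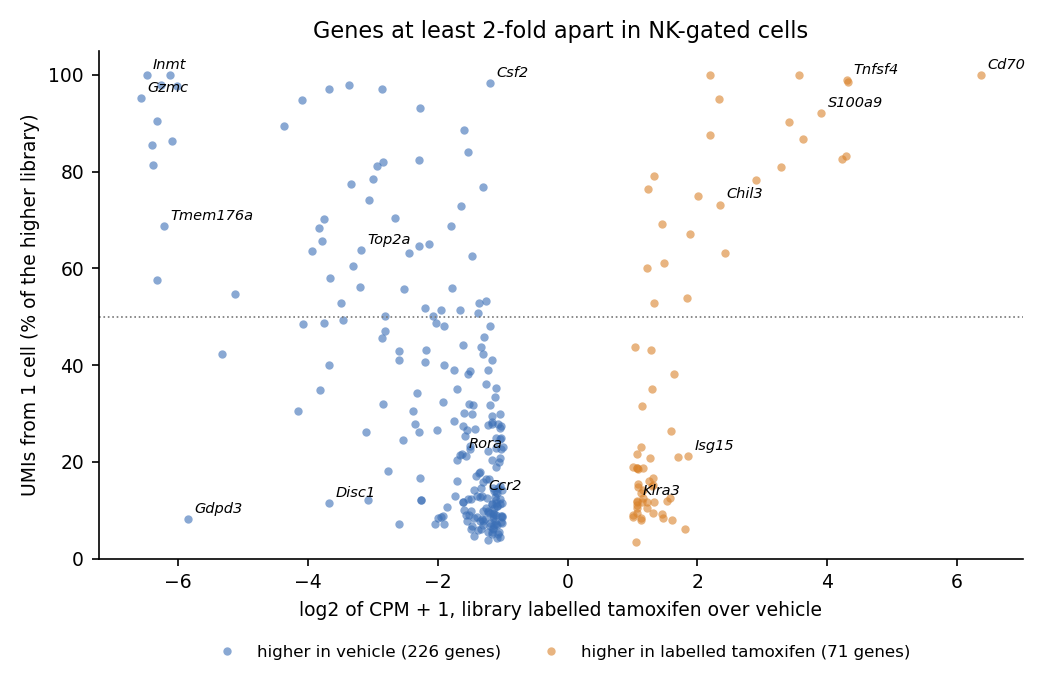
For each of the 297 genes at least 2-fold apart, the log2 ratio (x axis) and the percentage of its UMIs in the higher library that came from 1 cell (y axis), for genes higher with vehicle (blue) and in the library labelled tamoxifen (orange). Most points beyond a ratio of 4 in either direction lie above 50%, while Gdpd3, Disc1, Klra3, Isg15, Rora and Ccr2 lie low.

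Most genes past 2-fold were seen in more cells than these. In the library where the gene was high, 50 of 71 genes higher and 172 of 226 lower had a UMI in 10 or more members. The same was not counted over all genes at the level. Gdpd3, a phospholipase D family gene, had 37 UMIs in 21 vehicle members and 0 in the library labelled tamoxifen, where it was at least 5.77-fold lower. It was also higher with vehicle in other gates, with 87.9 and 0.557 CPM in CD4 T cells and 250 and 13.2 CPM in neutrophils. Disc1, a scaffold protein gene, had 35 UMIs in 27 members and 1 UMI, a log2 ratio of -3.67 (-9.38 to -1.46). Ahr, a ligand-activated factor, and Zfp516 came from fewer cells. Ahr had 35 UMIs in 9 vehicle members, 14 of them in 1, and 1 UMI in the other library, with a ratio of -3.67 that was -1.45 without the deep members. Zfp516 had 37 UMIs in 6 vehicle members, 18 of them in 1, and 1 UMI in the other library, and its ratio went from -3.75 to -0.066 without the deep members. Isg15, an interferon-induced gene, was at 29.0 and 108 CPM, a log2 ratio of 1.86 (1.04 to 2.79), from 14 members in each library. Its ratio was 1.16 without the condition on Cd79a, Epcam and C1qa. Isg15 was also higher in CD8 T cells of the library labelled tamoxifen, at 12.7 and 59.1 CPM. Cenpc1, a centromere gene, was seen in 14 and 17 members (ratio 1.62), Rbms2 in 14 and 19 (1.54), St6galnac2 in 14 and 21 (1.48) and Isoc1 in 10 and 11 (1.58). St6galnac2 was highest in gamma-delta T cells, at 62.5 and 122 CPM.

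Outside the Ly49 family, receptors and their signalling genes were much alike. Of 14 activating receptors, 10 reached 50 CPM, 0 were past 2-fold and their median log2 ratio was -0.02. Klrd1 (CD94) was at 899 and 1001 CPM, Klrk1 (NKG2D) at 639 and 838 CPM and Klrc2 (NKG2C) at 279 and 375 CPM. Of 13 inhibitory and checkpoint receptors, 6 reached the level, with a median of 0.02. Klrb1b was at 662 and 554 CPM, Klrc1 at 317 and 424 CPM and Klri2 at 327 and 401 CPM. Havcr2 (TIM-3) was lower past 2-fold, with 41 of its 50 vehicle UMIs in the deepest member. Of 17 adapters and kinases, 15 reached the level and 0 were past 2-fold, with a median of 0.02. In the Ly49 family, 6 of 11 reached it, 1 was higher and the median was 0.54.

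Most effector genes were under 2-fold apart. Ifng, Xcl1, Ccl3 and Ccl5 were also under 2-fold, but higher in the library labelled tamoxifen. Of 19 cytotoxic genes, 14 reached the level, 0 were higher, 1 was lower (Gzmc, above) and the median was 0.21. Of 14 cytokines and chemokines, 10 reached it, 0 were higher, Csf2 and Ltb were lower and the median was 0.37. The direction of Csf2 turned without the deep members, where vehicle had 0 and the other library 5 UMIs, and at 8 or more gate UMIs, with 2 and 25. It turned also without the condition on Cd79a, Epcam and C1qa, at a ratio of 1.76. There 1 cell gave 177 of the 202 Csf2 UMIs of the library labelled tamoxifen. At 8 or more gate UMIs 1 cell gave 20 of the 25. Ccl5, a chemokine for T cells and dendritic cells, was at 9244 CPM (9013 to 9480) and 13944 CPM (13529 to 14368), a log2 ratio of 0.59 (0.54 to 0.65). The ratio of Ccl5 was 0.42 without the deep members. Ccl5 was also higher in CD8 T cells of that library, at 2458 and 3651 CPM. Ccl4 was at 3262 and 3867 CPM and Ccl3 at 1169 and 1810 CPM. The ratio of Ccl3 was 0.63, and 0.38 without the deep members. Xcl1 was at 168 and 277 CPM in 22 and 12 members, a ratio of 0.72 (0.30 to 1.15). Ifng was at 246 CPM (209 to 287) and 473 CPM (399 to 556), a log2 ratio of 0.94 (0.61 to 1.28), just under 2-fold. It was seen in 36 and 23 members. Its ratio was past 2-fold at 1.23 among members with 8 or more gate UMIs and at 1.06 without the condition on Cd79a, Epcam and C1qa. Of 161 and 145 Ifng UMIs, 41 and 44 came from 1 member in each library. Ltb, lymphotoxin beta, had 68 and 6 UMIs in 16 and 3 members, a ratio of -2.35, which was -0.59 without that condition.

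Among 18 cytokine receptors and their kinases, 15 reached the level, 0 were higher and Il7r, Tgfbr1 and Kit were lower, with a median of -0.08. Il12rb2, Jak1 and Ifngr1 were the highest. Il12rb2 was at 1238 and 933 CPM, Jak1 at 1176 and 1112 CPM and Ifngr1 at 1163 and 1298 CPM. Tgfbr1, a receptor of TGF beta, was at 102 and 42.4 CPM in 34 and 8 members, a ratio of -1.25 (-2.25 to -0.40). Without the condition on Cd79a, Epcam and C1qa the ratio was -0.19. Of 24 transcription factors, 19 reached the level, 0 were higher and Ikzf2 was lower, with a median of -0.04. Ikzf2 had 68 UMIs in 10 members and 14 in 5, and was under 2-fold at -0.92 without that condition. It was also lower in CD8 T cells of the library labelled tamoxifen, at 285 and 38.8 CPM. Irf8 had a ratio of 0.09, Klf2 of 0.49 (809 and 1138 CPM) and Stat4 of -0.54 (1073 and 737 CPM). Of 22 trafficking genes, 15 reached it, 0 were higher, 1 was lower and the median was -0.15. The lower gene was Ccr2, a receptor for monocyte chemokines, at 189 CPM in 50 members and 75.0 CPM in 17, a ratio of -1.32 (-2.04 to -0.68). It was -0.92 among members with 8 or more gate UMIs and -0.99 without the deep members. Itga4 (678 and 753 CPM), Itga2 and Selplg (536 and 607 CPM) led that list.

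Several genes of immature NK cells and of ILC1 were lower in the library labelled tamoxifen, and much of this came from a few deep members. Of 12 early maturation genes, 6 reached 50 CPM, 0 were higher and Ltb, Emb, Kit and Il7r were lower, with a median of -1.62. Without the members over 10000 UMIs that median was -0.46, and without the condition on Cd79a, Epcam and C1qa it was -0.42. Emb, a cell adhesion gene, was at 175 and 52.2 CPM in 20 and 8 members, a ratio of -1.73 (-2.60 to -0.99), which was -1.33 without the deep members and -0.55 without the condition. Without the deep members Il7r went from -1.51 to 0.02 and Kit from -2.54 to -0.94. The list's highest genes, Xcl1 (168 and 277 CPM) and Ctla2a (182 and 218 CPM), were not lower. Of 11 late maturation genes, all 11 reached the level, 0 were past 2-fold and the median was -0.02. Ly6c2 was at 923 and 874 CPM.

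Of 16 ILC1 and residency genes, 7 reached the level. Nrgn was higher and Tmem176a, Tmem176b, Il7r and Inpp4b were lower, with a median of -1.51, which was -0.63 among members with 8 or more gate UMIs and -0.61 without the deep members. Without the condition on Cd79a, Epcam and C1qa it was -0.084. Tmem176a had 33 of its 48 UMIs in 1 vehicle member and 0 in the library labelled tamoxifen, at least 7.49-fold lower. With Tmem176a set at that bound the list's median was again -1.51. Tmem176b had 29 of 52 UMIs in 1 vehicle member. Nrgn had 19 of 24 UMIs in 1 member of the library labelled tamoxifen. Inpp4b, a lipid phosphatase, had 107 UMIs in 16 members and 10 in 5, a ratio of -2.29 that was -0.90 without that condition. Rgs1 (221 and 238 CPM) and Rgs2 (259 and 186 CPM) led the list and were not past 2-fold.

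**Figure D5:**
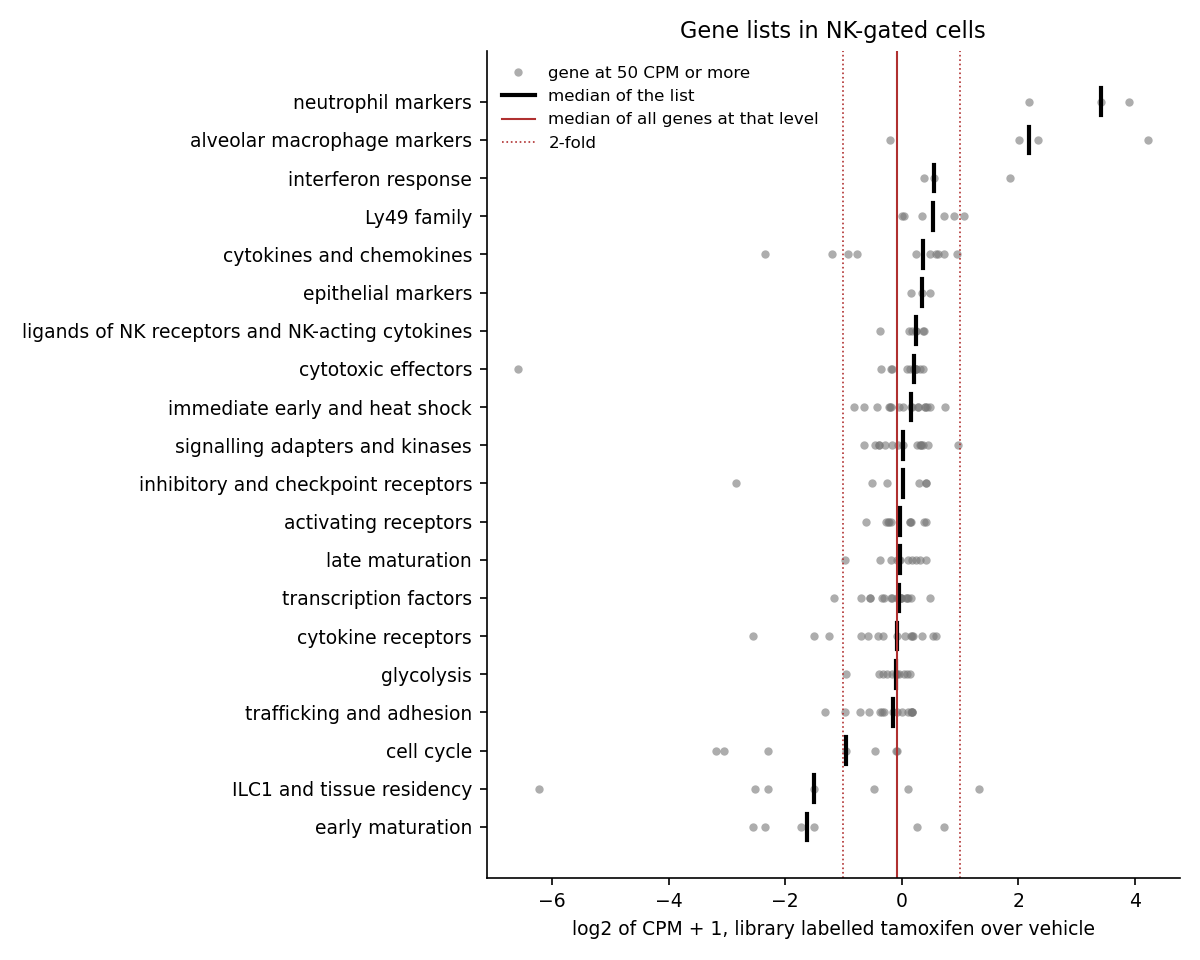
Log2 ratio of the library labelled tamoxifen over vehicle for each gene at 50 CPM or more (grey points) in 20 gene lists, with the list's median (black bar), the median of all 4187 genes (red line, -0.073) and 2-fold (dotted). The activating receptor, inhibitory receptor and transcription factor lists lie near 0. The cytotoxic list lies at 0.21, the cytokine and chemokine list at 0.37 and the Ly49 list at 0.54. With the deep and low-count members kept, the early maturation and ILC1 lists lie at -1.62 and -1.51, and the neutrophil list lies at 3.42.

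Lists of cell state were mixed. Of 16 interferon response genes measured, 3 reached the level, Isg15 was higher and 0 were lower, with Irf1 at 192 and 251 CPM. Of 15 cell cycle genes, 7 reached it, 0 were higher and Mki67, Top2a and Birc5 were lower, with a median of -0.95, which was -0.14 without the deep members. The deepest vehicle member gave 43 of 58 Mki67 UMIs and 65 of 102 Top2a UMIs. At 2000 UMIs per cell, Mki67 was seen in 2 of 116 and 0 of 61 members. Hmgb2 (545 and 398 CPM), Tuba1b (215 and 111 CPM) and Stmn1 (199.9 and 189 CPM) led that list. Of 20 immediate early and heat shock genes, which respond to tissue dissociation, 17 reached the level, 0 were past 2-fold and the median was 0.15, with Junb at 2747 and 3326 CPM. Of 14 glycolysis genes, 11 reached it, 0 were past 2-fold and the median was -0.10. Of 19 ligands of NK receptors and NK-acting cytokines, 7 reached it, 0 were past 2-fold and the median was 0.24, led by the class I genes H2-D1 (1961 and 2328 CPM) and H2-K1 (1524 and 1989 CPM).

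Markers of other cells were present at low levels and moved with some of these results, and their part in the ratios was not tested. All 3 neutrophil genes of 5 that reached 50 CPM (S100a8, S100a9 and Cxcr2) were higher in the library labelled tamoxifen, and their list summed to 127 and 1291 CPM, with Retnlg at 0. Among members with 8 or more gate UMIs the median of these 3 was -0.58, against 3.42 in all members. Of 7 alveolar macrophage genes, 4 reached the level and Chil3, Ear2 and Lpl were higher, with sums of 163 and 476 CPM and Marco at 0. Of 6 monocyte and macrophage genes, 2 reached it, Ccr2 was lower, and Lyz2 was at 482 and 629 CPM. Of 7 epithelial genes, 3 reached it and 0 were past 2-fold. Sftpc, a surfactant gene, was seen in 112 and 56 members at 389 and 437 CPM, against 63271 and 66681 CPM in epithelial-gated cells.

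No B cell gene of 5 and no erythroid gene of 4 reached the level, and Ms4a1, Pax5, Hbb-bs, Hba-a1 and Hba-a2 were at 0 in both libraries. Of 8 T cell genes, Trbc1 and Trbc2 reached it, while Cd4 and Cd8b1 were at 0. Of 8 ILC2 and mast cell genes, Rora and Gata3 reached it and Rora was lower, at 375 CPM in 55 members and 121 CPM in 24, a ratio of -1.63 (-2.18 to -1.13). Without the condition on Cd79a, Epcam and C1qa the ratio was -0.71. It was -1.01 without the deep members, of which 1 gave 53 of the 246 vehicle UMIs. Of 5 endothelial genes, Pecam1 reached the level, at 53.4 and 55.4 CPM. The monocyte gate was also met by 77 and 35 members. Ly6c2 was seen in 80 and 40 members and Ccr2 in 50 and 17, and why members met that gate was not tested.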

How the data were processed

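Single-cell RNA was captured with version 3 of the 10x Genomics 3′ kit, per the labels' protocols. The files deposited by the authors give UMI counts for every gene in every barcode, not normalized. Their headers name Cell Ranger 7.0.1 and the submitters' processing notes name Cell Ranger 7.2.0 and mm10. Aligner settings, annotation and the use of strand are not given in the sources used here. The deposited gene and barcode names were used as they stand, and 32158 of 32289 identifiers matched GENCODE M21. One further allele of the shared genotype and some genes of the lists are not reported here.

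Cells were gated on UMIs, rows of 1 symbol were summed, and member UMIs were summed per library and scaled to CPM. Ratios are log2 with a pseudocount of 1 CPM, and their intervals are exact conditional binomial intervals without it. Those of CPM are exact Poisson and those of shares Clopper-Pearson intervals. Thinning drew 2000 UMIs per cell. Scrublet ran in scanpy 1.11.5 (expected rate 0.06), no doublet was removed, and TMM came from edgeR 4.0.16. The size rule was tested on simulated data.

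Named were the 5 markers, in each of 26 lists the 3 highest genes and those past 2-fold, Hnf4a, the Ly49 family, the genes with thinned shares, and the 10 highest and 10 lowest ratios. The last left out gate, mitochondrial, ribosomal, immunoglobulin, sex-linked and unnamed genes and those over 5 times higher in another gate, which left 40 and 137 genes. Genes outside this rule (H2-Ab1, Cma1 and others given as levels) were named after their values were seen. Members, lists and rules were chosen with earlier results of these data known.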

Additional observations from a re-analysis of the deposited data

How the results depend on the processing

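No paired analysis was possible because each group holds 1 library. Settings with a gate sum of at least 8, without members over 10000 UMIs, or without the condition on Cd79a, Epcam and C1qa were chosen after seeing the data. The 71 higher genes became 107 with a mean over cells, 22 at a minimum of 100 CPM, 299 at 20 CPM and 17 at 4-fold. The 226 lower genes became 130 without the condition, 72 at 100 CPM, 663 at 20 CPM and 72 at 4-fold. Without the condition the shares were 2.22% and 1.51%.

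Among lists, the Ly49 median was 0.17 with a mean over cells. Without deep members the medians were -0.46 (early maturation), -0.14 (cell cycle) and 0.72 (alveolar macrophage). Without the condition they were -0.42 (early maturation), -0.084 (ILC1), -0.40 (cell cycle) and 0.89 (neutrophil). The alveolar macrophage median was 0.29 at a gate sum of at least 3, 0.67 at 8 and 1.18 with a mean over cells. The neutrophil median was -0.58 at 8 and 2.74 with a mean over cells.

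Some named genes past 2-fold changed sign. Without deep members these were Csf2 (4.32, with 0 vehicle UMIs and so at least 3.15-fold higher against 3 counts), Ear2 (-0.46), Il7r (0.023), Nrgn (-1.66), Tmem176b (0.45), Tnfsf4 (-0.55), Top2a (0.29) and Tspan3 (-0.36). At a gate sum of at least 8 they were Csf2 (4.32), Cxcr2 (-3.87, from 7 and 0 UMIs), Ear2 (-0.40) and S100a8 (-0.58). Without the condition they were Csf2 (1.76), Gzmc (5.08) and Tmem176a (0.022), and with a mean over cells Nrgn (-0.40). Without the condition, 1 added cell gave all 1215 Gzmc UMIs of the library labelled tamoxifen, and 1 cell gave 177 of its 202 Csf2 UMIs. In each case members were dropped, added or weighted equally. Of 19 further genes under 2-fold, Ccl4, Eomes, Klra9 and Klre1 changed sign without deep members (Ccl4 -0.11) and with a mean over cells (Ccl4 -0.16), as did Ncr1 with that mean, and Klra9 and Klre1 at a gate sum of at least 8. Klra9 alone did so at a gate sum of at least 3. TMM and the median of ratios reversed none of these. Depth limits the library labelled tamoxifen most, where 1 UMI is 3.26 CPM.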
